A study of Saccharomyces cerevisiae with 40 samples.

Results

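The Puf RNA-binding protein genes of budding yeast were followed through total RNA, newly labeled RNA, ribosome footprint and footprint input libraries of *Saccharomyces cerevisiae* W303. The 6 genes were taken by their systematic names, *JSN1* (also *PUF1*, YJR091C), *PUF2* (YPR042C), *PUF3* (YLL013C), *PUF4* (YGL014W), *MPT5* (also *PUF5*, YGL178W) and *PUF6* (YDR496C), so no threshold on a measured value was applied. They are 6 of the 7127 genes listed in the total and labeled RNA tables and 6 of the 6613 listed in the input RNA and footprint tables, and all 6 passed the filter on low counts in every table. The study asked how loss of Def1, a regulator of RNA polymerase II, alters mRNA synthesis, decay and translation.

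Cultures of every strain were in log phase in YPD. Total RNA came from untreated WT and *def1Δ* cells (*DEF1* deleted), with 2 libraries a strain. Labeled RNA came from WT and *def1Δ* cells given 4-thiouracil (4tU), a uracil analog that is built into new RNA and allows its capture, for 6, 9, 12, 24 or 90 min. It had 2 libraries a strain and time, except at 12 min, where replicate 1 of each strain is described as having failed quality control, has no values, and leaves 1 library a strain. Input RNA (3 libraries a strain) and ribosome-protected footprints (3 columns a strain) came from WT, *def1Δ* and *dhh1Δ* cells treated with cycloheximide, which halts ribosomes. *DHH1* encodes a DEAD-box helicase that acts in mRNA decapping and in repression of translation. The footprint labels list sequencing runs, so the 3 columns of a strain may not be separate cultures. The study calls the total and labeled RNA replicates biological. For input RNA and footprints no source used here says so, and their p-values may measure only technical spread.

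Puf proteins carry repeats of the Pumilio fold. In many of them each repeat reads about 1 RNA base, and they bind mRNAs at short sites in their 3′ ends that begin with UGUA. In yeast, Puf3 binds mRNAs for mitochondrial proteins, Puf4 and Mpt5 bind other mRNA sets, among them *HO*, and these proteins recruit the Ccr4-Not deadenylase, which shortens poly(A) tails ahead of decay. Jsn1 and Puf2 form a pair with a distinct RNA specificity and bind many mRNAs for membrane proteins, and Puf6 acts in assembly of the large ribosomal subunit and in repression of *ASH1* mRNA on its way to the bud.

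The Puf genes lie on 5 chromosomes of the R64 build and overlap no other RefSeq gene. *JSN1* is at chrX:595061-598336 (minus strand), *PUF2* at chrXVI:650435-653662 (minus), *PUF3* at chrXII:122075-124714 (minus), *PUF4* at chrVII:466141-468807 (plus), *MPT5* at chrVII:167352-170571 (plus) and *PUF6* at chrIV:1441433-1443403 (minus). *MPT5* has 2 coding exons and the other members 1 each. The nearest RefSeq gene lies between 282 and 843 bases away.

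Since Puf3, Puf4 and Mpt5 bind 3′ ends, the 200 bases after the stop codon of each gene were searched on both strands for the published site of each of these proteins in DNA letters: TGTANATA for Puf3, TGTANANTA for Puf4, and for Mpt5 the Puf4 letters with 1 more N directly after TGTA. These cannot match from the same first base, but all begin with TGTA, which stood in 75.2% of 6002 such windows. Of the Puf genes, none held the Puf3 site on the coding strand, 2 held the Puf4 site (*PUF4* and *PUF6*) and 1 held the Mpt5 site (*MPT5*). Over all 6002 windows the shares were 14.1%, 7.36% and 6.55% on the coding strand and 13.2%, 5.06% and 5.06% on the opposite strand. On the opposite strand, *PUF2* and *MPT5* each held 1 match to the Puf4 site. A match is a description of these letters and not a bound site. The sites in the Puf genes are printed 5′ to 3′ on the coding strand, with the match in capitals, because *PUF4* and *MPT5* carry the site ascribed to their own protein.
*PUF4*, 57 bases after the stop, chrVII:468854-468883 (plus): taatatctttTGTACAATActaaaatacat
*MPT5*, 35 bases after the stop, chrVII:170596-170625 (plus): tccttcttacTGTACAAATAttttacgcag
*PUF6*, 42 bases after the stop, chrIV:1441372-1441401 (minus): tataagcatcTGTACAATAataataaaaag
Sites of known target mRNAs are shown for comparison, 1 for each protein, since these mRNAs are described with their own values further on.
*COX17*, Puf3 site, chrXII:131155-131184 (minus): caaccatttctTGTATATAtaagaataggt
*HO*, Puf4 site, chrIV:46241-46270 (minus): aatgTGTATATTAgtttaaaaagttgtatg
*STE7*, Mpt5 site, chrIV:174138-174167 (plus): aattttctaaTGTAACAATAtttttaaaaa
The sites of *PUF4* and *PUF6* share the same 9 letters, whereas that of *MPT5* has 1 base more between TGTA and TA.

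Library totals ran from 9954485 to 14243524 counts for total RNA, 6026470 to 16318076 for labeled RNA, 14894073 to 45654269 for input RNA and 1984692 to 8635312 for footprints. Levels are given as CPM, each library's counts scaled to the same total and then by TMM, a method that sets libraries to a common level through the bulk of their genes. They are relative to the other yeast transcripts of a library, and a change in the RNA content of the whole cell is not seen. A gene was called at an adjusted p under 0.01 (edgeR's quasi-likelihood test, Benjamini-Hochberg adjustment over all genes tested). *DEF1* had 0 to 4 counts in the *def1Δ* total and labeled libraries against 620 to 2378 in WT, and 4.76 to 7.48 CPM in *def1Δ* input RNA against 790 to 995 CPM in WT. *DHH1* was lower but not absent in the libraries labeled *dhh1Δ*, at 65.0 to 85.1 CPM in input RNA against 216 to 305 CPM in WT and at 24.9 to 28.6 CPM in footprints against 235 to 239 CPM in WT. What these remaining reads come from was not tested.

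In WT total RNA, *PUF4* was the member with the highest level per length and *PUF6* the lowest. In CPM per kilobase of coding sequence, the WT means (n = 2) were 65.2 for *PUF4*, 38.8 for *MPT5*, 30.5 for *JSN1*, 29.3 for *PUF3*, 17.7 for *PUF2* and 14.4 for *PUF6*. The libraries of *JSN1* and *PUF3* overlapped, as did those of *PUF2* and *PUF6*, while the other neighbors in this order did not overlap. In *def1Δ* total RNA the order changed to *PUF3* (70.8), *JSN1* (49.8), *MPT5* (46.0), *PUF4* (41.7), *PUF2* (24.8) and *PUF6* (9.55), with no overlap between neighbors. *PUF3* thus moved from the fourth to the first place and *PUF4* from the first to the fourth.

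Comparing total RNA of *def1Δ* with WT, *PUF3* and *JSN1* rose and *PUF4* fell, so that 3 of the 6 members were called, beside 31.8% of the 6055 genes tested (15.4% higher and 16.4% lower). *PUF3*, the member that binds mRNAs for mitochondrial proteins, measured 65.1 and 89.8 CPM in WT and 174 and 200 CPM in *def1Δ*. Both mutant libraries lay above both WT libraries, a log2 fold change of 1.27 (SE 0.18, adjusted p = 0.000709, edgeR). *JSN1* measured 88.6 and 111 CPM in WT and 153 and 174 CPM in *def1Δ*, a log2 fold change of 0.71 (SE 0.15, adjusted p = 0.00588). *PUF4* measured 165 and 183 CPM in WT and 108 and 115 CPM in *def1Δ*, and fell by 0.64 on the log2 scale (SE 0.13, adjusted p = 0.00447). Because a culture was measured in bulk, a lower level in some cells and less RNA in every cell cannot be told apart.

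The remaining 3 members did not pass the test in total RNA. *PUF2*, the relative of *JSN1*, measured 51.9 and 62.6 CPM in WT and 76.6 and 83.3 CPM in *def1Δ* (log2 fold change 0.48, SE 0.14, adjusted p = 0.0218). *PUF6*, the ribosome assembly factor, measured 24.9 and 31.7 CPM in WT and 19.1 and 18.6 CPM in *def1Δ* (log2 fold change -0.59, SE 0.15, adjusted p = 0.0109). Both pairs of groups were separate, yet their differences missed the threshold. *MPT5* measured 90.8 and 109 CPM in WT and 117 and 120 CPM in *def1Δ* (log2 fold change 0.24, SE 0.14, adjusted p = 0.176). Without either *def1Δ* library no member was called, the adjusted p rising to 0.0220 for *PUF3*, 0.0976 for *JSN1* and 0.101 for *PUF4*, although the log2 fold changes stayed between 1.05 and 1.52 for *PUF3*, between 0.55 and 0.88 for *JSN1* and between -0.73 and -0.56 for *PUF4*. Without WT replicate 2, 5 members were called, *PUF2* and *MPT5* being added, and *PUF6* passed without WT replicate 1. The shares of all genes called in these leave-1-out fits are not given, so the counts have nothing to be read against. Scaling by library totals alone moved the median over all genes from 0.04 to -0.18 and ended the call of *JSN1* (log2 fold change 0.47, adjusted p = 0.0597), while *PUF6* passed (-0.83, adjusted p = 0.00106).

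**Figure D1:**
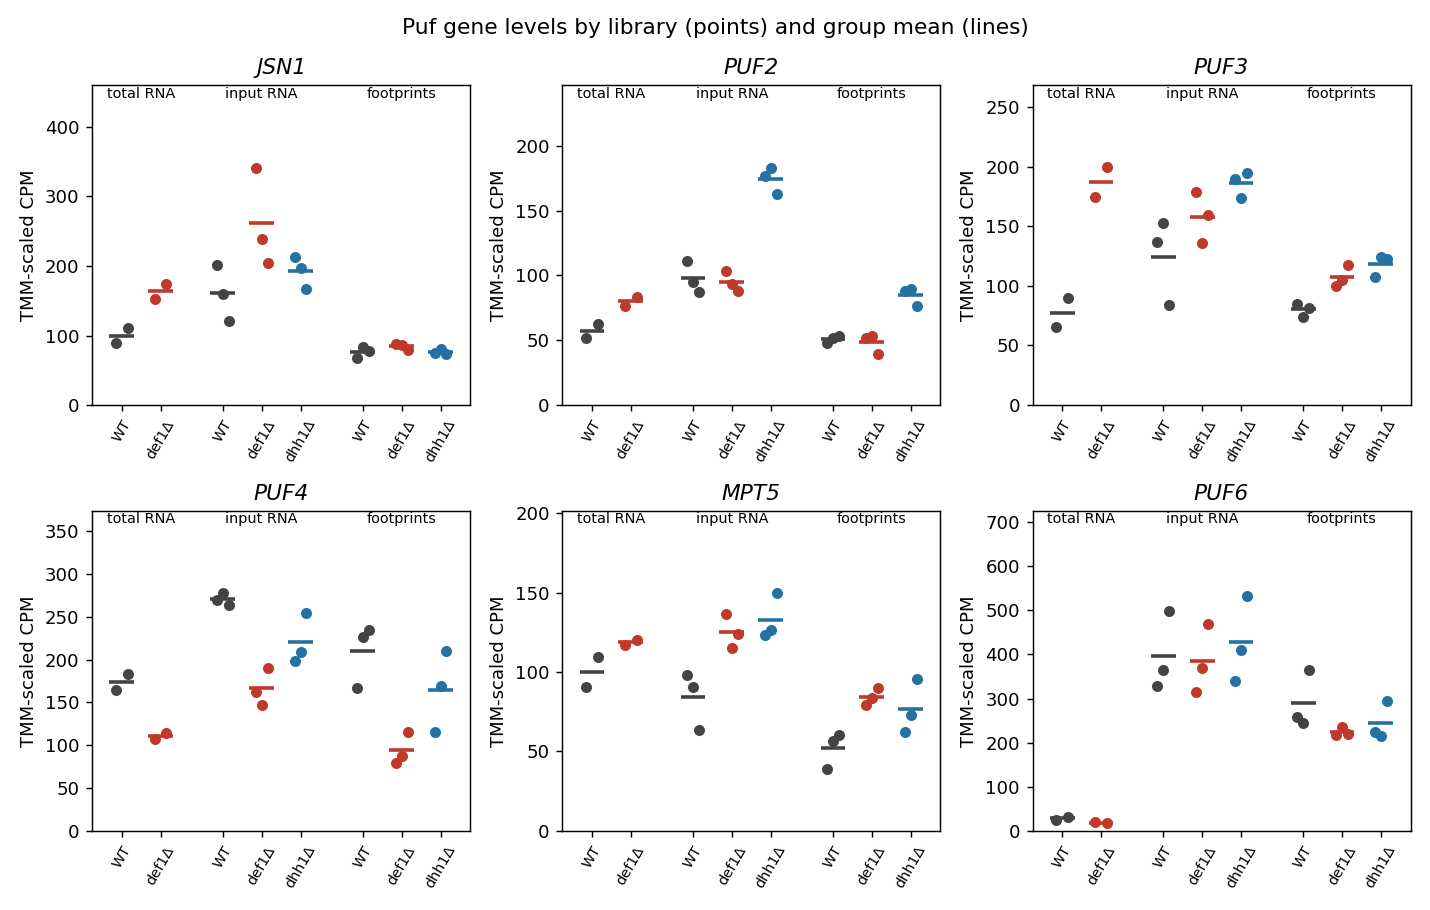
TMM-scaled CPM of each Puf gene (vertical axis, a separate linear scale from 0 for each gene) in total RNA (n = 2 libraries a strain), input RNA (n = 3) and footprints (3 columns a strain) of WT (grey), def1Δ (red) and dhh1Δ (blue). Points are libraries or columns and lines are group means. *PUF3* in total RNA lies at 65.1 and 89.8 CPM in WT and at 174 and 200 CPM in def1Δ, and *PUF4* is lower in every def1Δ library or column than in every WT one of the same kind.

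The order by length in WT labeled RNA at 6 min was unlike that in total RNA. *MPT5* was highest with a mean of 177 CPM per kilobase, followed by *PUF4* (163), *PUF2* (102), *JSN1* (88.2), *PUF3* (65.0) and *PUF6* (47.5), with no overlap between neighbors. By 90 min *PUF4* was highest (84.1) and *PUF2* lowest (29.9).

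RATE-Seq follows how 4tU-labeled RNA builds up toward its final amount. Transcripts that turn over fast reach that amount early, and their share of labeled RNA then declines while slower transcripts still accumulate. In WT, 5 of the 6 Puf transcripts took a smaller share of labeled RNA at 90 min than at 6 min, beside 46.1% of the 6499 genes tested called in either direction and 26.8% called lower. *PUF2* fell by 1.78 on the log2 scale (SE 0.15, adjusted p = 4.69e-08, edgeR), *MPT5* by 1.62, *JSN1* by 1.14, *PUF4* by 0.96 and *PUF3* by 0.71 (SE 0.20, adjusted p = 0.00568). *PUF6* did not pass (log2 fold change 0.34, SE 0.13, adjusted p = 0.0377). The call of *PUF3* was lost on leaving out any 1 of the 4 WT libraries at 6 and 90 min (adjusted p up to 0.0380). The median over all genes in this comparison was -0.16, and it moved to -0.83 on scaling by library totals, where *PUF6* changed sign to -0.33 (adjusted p = 0.0448) while the other members stayed negative, between -2.45 and -1.38.

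In *def1Δ* the same 5 members fell between 6 and 90 min, beside 61.4% of genes called and 31.9% called lower. *MPT5* fell by 2.56 on the log2 scale (SE 0.20), *PUF2* by 2.48 (SE 0.15), *PUF4* by 2.31 (SE 0.17), *PUF3* by 1.24 (SE 0.19) and *JSN1* by 1.11 (SE 0.15), and the largest adjusted p among them was 2.21e-05. *PUF6* gave -0.09 (SE 0.13, adjusted p = 0.569). As a share of the 6 min mean, the labeled *PUF4* level at 90 min was 51.5% in WT and 20.2% in *def1Δ*, that of *MPT5* 32.7% and 16.9%, that of *PUF2* 29.3% and 18.0%, and that of *JSN1* 45.4% and 46.4%.

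The test of the difference between the strains in this decline called *PUF4* alone among the members, beside 16.6% of all genes (6.77% more negative in *def1Δ*). For *PUF4* the difference was -1.35 (SE 0.23, adjusted p = 0.000667, edgeR). It was -0.95 for *MPT5* (SE 0.27, adjusted p = 0.0139), -0.70 for *PUF2* (SE 0.20, adjusted p = 0.0149), -0.53 for *PUF3* (SE 0.27, adjusted p = 0.160), -0.42 for *PUF6* (SE 0.18, adjusted p = 0.0941) and 0.03 for *JSN1* (SE 0.21, adjusted p = 0.932). *PUF4* was called on leaving out each of the 8 libraries in turn, with the difference between -1.44 and -1.15, and under library totals, where it was -0.85 (adjusted p = 0.00786) against a median over all genes of 0.49. DESeq2 called 3 members. *PUF6* and *JSN1* changed sign under at least 1 alternative.

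**Figure D2:**
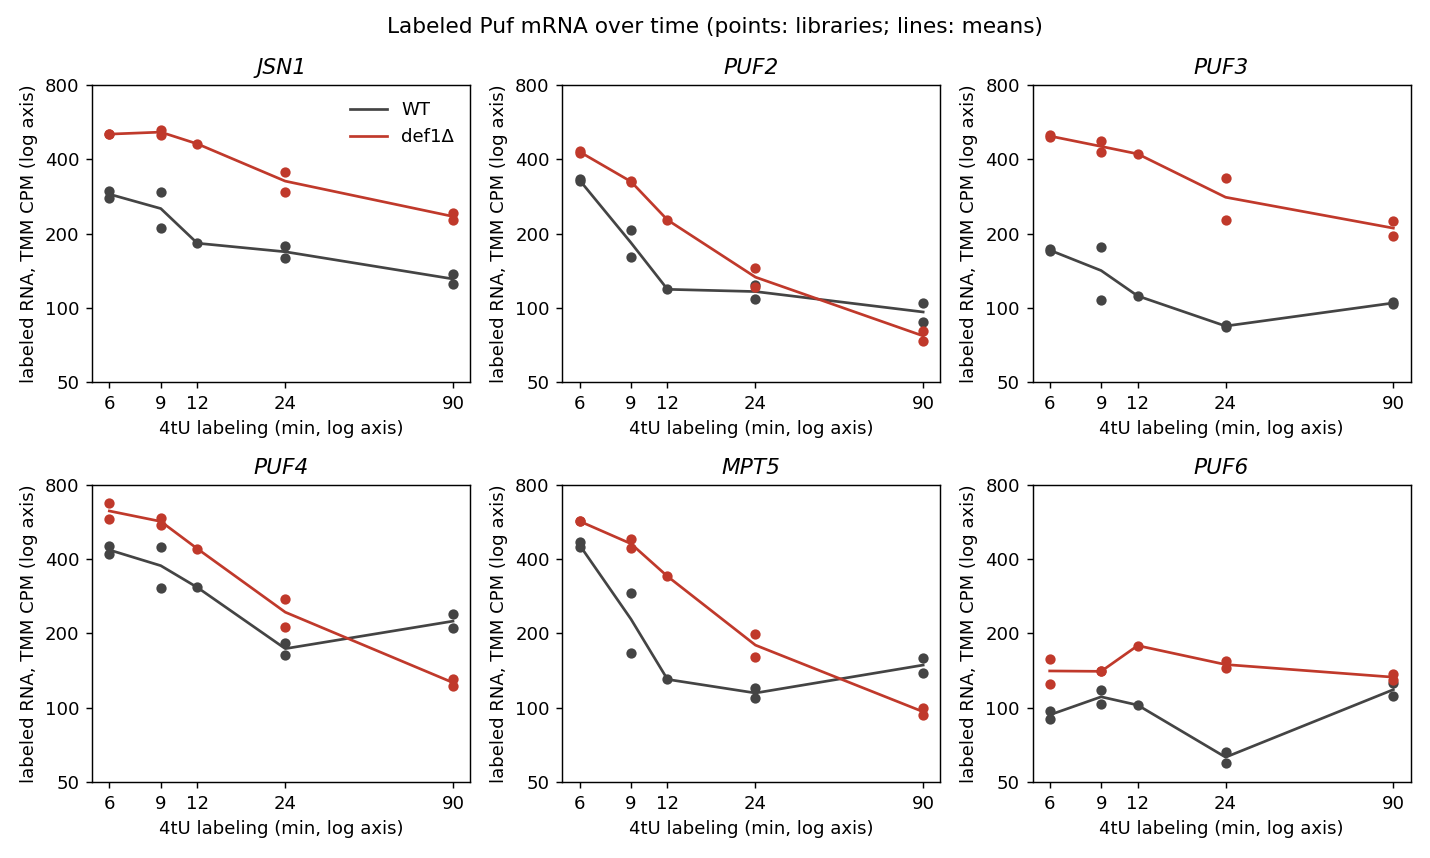
Labeled RNA of each Puf gene in TMM-scaled CPM (vertical log axis) against 4tU labeling time in minutes (horizontal log axis) for WT (grey) and def1Δ (red). Points are libraries (2 a strain and time, 1 at 12 min) and lines join means. For *PUF4* and *MPT5* the def1Δ points are above WT from 6 to 24 min and below WT at 90 min, while *PUF3* and *JSN1* are above WT at every time.

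*PUF3* showed the largest difference between strains of the 6 members at every labeling time. Its labeled level in WT was 170 and 174 CPM at 6 min, 176 and 107 CPM at 9 min, 112 CPM at 12 min, 83.9 and 85.3 CPM at 24 min and 106 and 104 CPM at 90 min. In *def1Δ* it was 492 and 502, 476 and 427, 421, 335 and 227, and 225 and 196 CPM at the same times. Every *def1Δ* library lay above every WT library, also across times. The log2 fold change was 1.53 at 6 min (SE 0.20), 1.67 at 9 min (SE 0.20), 1.91 at 12 min (SE 0.28), 1.73 at 24 min (SE 0.20) and 1.01 at 90 min (SE 0.20), with adjusted p between 1.53e-06 and 0.000304. The 12 min value borrows its spread from the other times, as 1 library a strain gives none. Of all genes tested, 46.4% were called at 6 min (24.3% higher), 50.8% at 9 min (26.7% higher), 45% at 12 min (24.6% higher), 52% at 24 min (28.9% higher) and 52% at 90 min (28.3% higher and 23.7% lower). These shares stand beside 3, 5, 5, 4 and 4 of the 6 members called at these times. Fitting only the libraries of 1 time gave 6 members at 6 min, adding *PUF2*, *PUF4* and *MPT5*, and 3 at 9 min, where *PUF4* and *MPT5* were not called. The shares above are those of the main fit, so these counts have no share of all genes beside them.

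*JSN1* was also called higher in *def1Δ* at all 5 times, with log2 fold changes of 0.81, 1.03, 1.34, 0.95 and 0.84 from 6 to 90 min (SE 0.14 to 0.21) and adjusted p of at most 0.000176. The mean labeled level fell from 289 to 131 CPM in WT and from 506 to 235 CPM in *def1Δ* between 6 and 90 min. *PUF2* was called higher at 9 min (log2 fold change 0.82, SE 0.14) and at 12 min (0.93, SE 0.20) and at no other time. It gave 0.38 at 6 min (adjusted p = 0.0265), 0.19 at 24 min (adjusted p = 0.252) and -0.32 at 90 min (adjusted p = 0.0652). Under library totals the 90 min value of *PUF2* was 0.05, and without *def1Δ* replicate 1 its 24 min value was -0.03, so neither has a settled direction.

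*PUF4* changed direction along the time course. In WT its labeled level was 451 and 420 CPM at 6 min, 446 and 307 CPM at 9 min, 307 CPM at 12 min, 184 and 164 CPM at 24 min and 210 and 239 CPM at 90 min. In *def1Δ* it was 673 and 579, 589 and 547, 441, 275 and 213, and 131 and 122 CPM. The *def1Δ* libraries lay above WT from 6 to 24 min and below WT at 90 min. No overlap was seen, but at 12 min 1 library a strain could not overlap. The call was higher at 9 min (log2 fold change 0.59, SE 0.16, adjusted p = 0.00467) and lower at 90 min (-0.83, SE 0.17, adjusted p = 0.000397). At 6, 12 and 24 min the log2 fold changes were 0.52, 0.52 and 0.49, with adjusted p of 0.0115, 0.0660 and 0.0165. The 9 min call was lost without WT replicate 2 or either *def1Δ* replicate at 9 min (adjusted p up to 0.0906), and the 24 min value passed without *def1Δ* replicate 2. Under library totals, which moved the median over all genes at 90 min from 0 to 0.37, the 90 min value was -0.45 (adjusted p = 0.0267).

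*MPT5* had a similar course with a larger rise at the middle times. In WT it measured 467 and 446 CPM at 6 min, 291 and 166 CPM at 9 min, 130 CPM at 12 min, 120 and 110 CPM at 24 min and 138 and 160 CPM at 90 min. In *def1Δ* it measured 571 and 568, 481 and 442, 341, 199 and 160, and 99.5 and 93.4 CPM. It was called higher at 9 min (1.01, SE 0.19), 12 min (1.39, SE 0.27) and 24 min (0.64, SE 0.19) and lower at 90 min (-0.63, SE 0.19, adjusted p = 0.00919), and gave 0.32 at 6 min (adjusted p = 0.154). The 90 min call was lost on leaving out any 1 of the 4 libraries at 90 min (adjusted p up to 0.0770) and under library totals (-0.25, adjusted p = 0.276). The 24 min call was lost without either WT replicate or *def1Δ* replicate 1 (adjusted p up to 0.131).

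*PUF6* did not follow the other members. Its WT level was 96.8 and 90.4 CPM at 6 min, 118 and 103 CPM at 9 min, 103 CPM at 12 min, 60.1 and 66.2 CPM at 24 min and 111 and 126 CPM at 90 min. In *def1Δ* it was 124 and 158, 140 and 141, 179, 145 and 155, and 129 and 137 CPM. Its WT mean at 90 min was 126.5% of that at 6 min, whereas the other members were between 29.3% and 61.1%. *PUF3*, *PUF4*, *MPT5* and *PUF6* all had their lowest WT mean at 24 min. The difference was called at 6 min (log2 fold change 0.59, SE 0.13), 12 min (0.80, SE 0.18) and 24 min (1.25, SE 0.13, adjusted p = 6.91e-07) and not at 9 min (0.34, adjusted p = 0.0297) or 90 min (0.17, adjusted p = 0.270). The 6 min call was lost without either WT replicate or *def1Δ* replicate 2 (adjusted p up to 0.0727).

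Averaged over the 5 labeling times, all 6 members were called higher in *def1Δ*, beside 71.5% of genes called and 36.9% called higher. The log2 fold changes were 1.57 for *PUF3*, 0.99 for *JSN1*, 0.63 for *PUF6*, 0.55 for *MPT5*, 0.40 for *PUF2* and 0.26 for *PUF4* (SE 0.06 to 0.10), with adjusted p (edgeR) from 1.73e-10 to 0.00715. The labeled RNA fits treat the 18 libraries as independent. Whether the labeling times of a replicate number came from 1 culture was not settled. If they did, these p-values may understate the spread between cultures. *PUF4* and *MPT5*, called higher here, were called lower at 90 min. Without the *def1Δ* 12 min library, which takes that time out of the average, *PUF2* (0.20, adjusted p = 0.0137), *MPT5* (0.27, adjusted p = 0.0119) and *PUF4* (0.12, adjusted p = 0.156) were not called. *PUF4* kept its call only when the library left out was WT 9 min replicate 1 or 2, WT 24 min replicate 1, WT 90 min replicate 2, or *def1Δ* 24 or 90 min replicate 2.

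**Figure D3:**
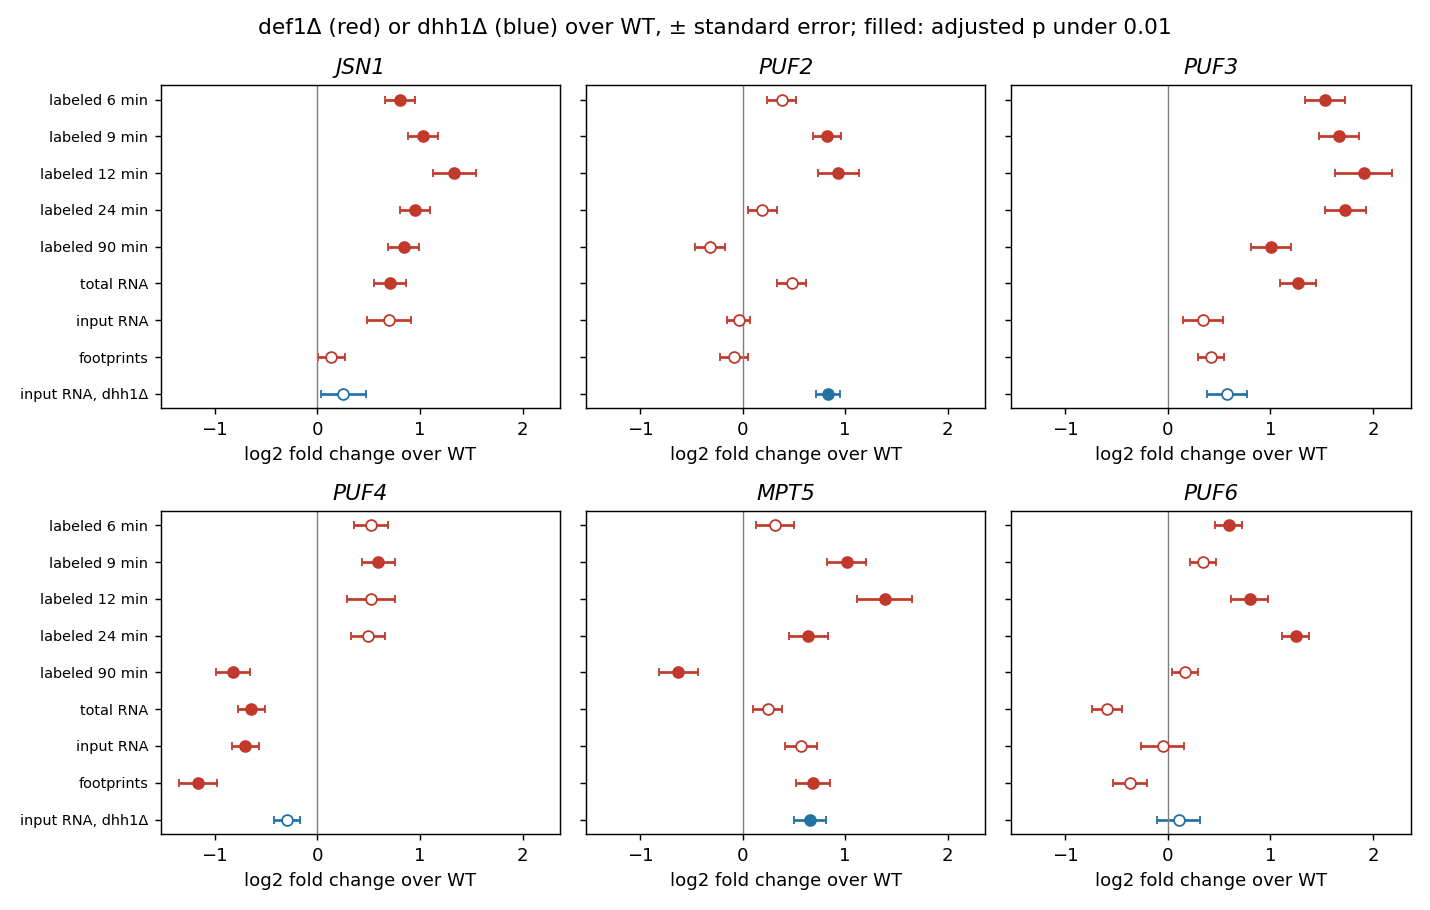
Log2 fold change over WT (horizontal axis) of each Puf gene with its standard error (bars) in labeled RNA at 5 times, total RNA, input RNA and footprints of def1Δ (red) and in input RNA of dhh1Δ (blue). Filled points have an adjusted p under 0.01. *PUF4* lies between 0.49 and 0.59 from 6 to 24 min of labeling and between -1.16 and -0.64 in the 90 min, total RNA, input RNA and footprint comparisons of def1Δ.

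In input RNA of cycloheximide-treated cells, *PUF4* was the single member called between *def1Δ* and WT, beside 24% of the 6434 genes tested (9.87% lower). *PUF4* measured 270, 278 and 264 CPM in WT and 162, 146 and 191 CPM in *def1Δ*, and fell by 0.70 on the log2 scale (SE 0.13, adjusted p = 0.00176, edgeR). The groups were separate, and the call was lost without *def1Δ* replicate 2 (-0.62, adjusted p = 0.0111). *JSN1* measured 202, 160 and 121 CPM in WT and 340, 239 and 204 CPM in *def1Δ* (log2 fold change 0.70, SE 0.22, adjusted p = 0.0259). *MPT5* measured 98.2, 90.5 and 63.8 CPM in WT and 136, 115 and 124 CPM in *def1Δ* (0.57, SE 0.16, adjusted p = 0.0157), and passed without WT replicate 1 (adjusted p = 0.00930). Both had separate groups without a call, and DESeq2 called 3 members in all. A fit with the replicate number as a block called *JSN1* as well as *PUF4*.

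*PUF3*, the member with the largest rise in total RNA, overlapped between strains in input RNA. It measured 136, 152 and 84.1 CPM in WT and 179, 136 and 159 CPM in *def1Δ* (log2 fold change 0.34, SE 0.19, adjusted p = 0.177). The total RNA and input RNA tables were made in different ways, and the difference between them was not tested. *PUF2* (-0.04, SE 0.12) and *PUF6* (-0.05, SE 0.21) had overlapping groups. *PUF2* changed sign without WT replicate 1, and *PUF6* without WT replicate 3 or *def1Δ* replicate 1.

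*PUF2* and *MPT5* rose in input RNA of the strain labeled *dhh1Δ*, beside 22.6% of genes called (13.5% higher). This comparison shares its WT libraries with that of *def1Δ*. *PUF2* measured 111, 94.7 and 87.4 CPM in WT and 177, 183 and 163 CPM in *dhh1Δ*, a log2 fold change of 0.83 (SE 0.12, adjusted p = 0.000351, edgeR). Every mutant library lay above every WT library. *MPT5* measured 123, 126 and 149 CPM in *dhh1Δ* (0.66, SE 0.16, adjusted p = 0.00830), and its call was lost on leaving out any 1 library of the comparison other than WT replicate 1 (adjusted p up to 0.0368). *PUF3* measured 189, 174 and 195 CPM (0.58, SE 0.19, adjusted p = 0.0374) and *PUF4* 198, 209 and 255 CPM (-0.30, SE 0.13, adjusted p = 0.0940). The groups of both were separate from WT without a call. *JSN1* (0.25, adjusted p = 0.391) and *PUF6* (0.11, adjusted p = 0.728) overlapped with WT, and *PUF6* changed sign without WT replicate 1 or *dhh1Δ* replicate 3.

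The direct test of *def1Δ* against *dhh1Δ* input RNA called *PUF2* alone, beside 13.1% of genes (7.18% lower). *PUF2* measured 104, 93.6 and 88.2 CPM in *def1Δ*, all below the *dhh1Δ* libraries, and was lower by a log2 fold change of -0.87 (SE 0.12, adjusted p = 0.000506, edgeR). It was called on leaving out each library in turn (adjusted p up to 0.00457). *PUF4* gave -0.41 (SE 0.13, adjusted p = 0.0403), with all *def1Δ* libraries below all *dhh1Δ* libraries, and the other members gave values between -0.24 and 0.44 with overlapping groups. The remaining *DHH1* reads in these libraries stand beside each of these results.

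The order of the members by level per length differed between the tables. In WT input RNA, *PUF6* was highest with a mean of 202 CPM per kilobase, followed by *PUF4* (101), *JSN1* (49.1), *PUF3* (47.1), *MPT5* (32.6) and *PUF2* (30.3), and the last 4 overlapped each with its neighbor. Ranks over all genes were taken by counts without length, among 6434 genes past the filter in input RNA and 6055 in total RNA. *PUF6* ranked above at least 89.7% of them in each WT input library, and above at most 68.2% in each WT total RNA library. Since the tables come from different harvests and were counted differently, the reason for this was not tested.

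Footprints report the ribosomes on an mRNA. *PUF4* fell and *MPT5* rose in *def1Δ* footprints, the 2 members called beside 24.6% of the 5601 genes tested (12.7% lower and 11.8% higher). *PUF4* measured 167, 227 and 235 CPM in WT and 78.9, 87.9 and 115 CPM in *def1Δ*, and fell by 1.16 on the log2 scale (SE 0.19, adjusted p = 0.000925, edgeR). The columns were separate, and the call held on leaving out each column (adjusted p up to 0.00702). *MPT5* measured 38.8, 56.6 and 60.6 CPM in WT and 79.3, 83.7 and 89.7 CPM in *def1Δ*, a log2 fold change of 0.69 (SE 0.17, adjusted p = 0.00893). This call was lost on leaving out any 1 of the 6 columns (adjusted p up to 0.0263). *PUF3* measured 84.8, 74.2 and 81.6 CPM in WT and 99.8, 105 and 117 CPM in *def1Δ* (0.42, SE 0.13, adjusted p = 0.0247), with separate groups and no call. *PUF6* gave -0.37 (adjusted p = 0.103), *JSN1* 0.14 (adjusted p = 0.423) and *PUF2* -0.08 (adjusted p = 0.654), the last changing sign to 0.09 under library totals.

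The 3 *dhh1Δ* footprint columns belong to 1 labeled sample and were not tested. They held 88.3, 89.5 and 76.3 CPM of *PUF2*, against 48.0, 52.0 and 53.6 CPM in WT. They held 108, 124 and 123 CPM of *PUF3*, and the lowest of these was above the highest WT column. For *PUF4* they held 116, 169 and 210 CPM, for *MPT5* 62.3, 72.9 and 95.5 CPM, for *JSN1* 75.3, 80.8 and 73.9 CPM and for *PUF6* 224, 216 and 293 CPM. The columns of *PUF4*, *JSN1* and *PUF6* overlapped with WT, and those of *MPT5* lay above WT.

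Translational efficiency, the footprint level divided by the mean input RNA level of the strain, was tested as an interaction over footprint and input columns. No member was called (0 of 6 by edgeR, 0 by DESeq2 and 0 at an unadjusted p under 0.05), beside 0.171% of the 6423 genes tested, or 11 genes, and 13.7% at an unadjusted p under 0.05. *JSN1* had the lowest mean efficiency of the 6 in every strain. It was 0.477 ± 0.0514 in WT, 0.324 ± 0.0186 in *def1Δ* and 0.399 ± 0.0192 in *dhh1Δ*. The SD is over 3 columns, each divided by 1 input mean, so the spread of input RNA is left out. The WT columns of *JSN1* overlapped with those of *PUF2* and *MPT5*. The *def1Δ* columns of *JSN1* lay below its WT columns, and the fitted difference was -0.53 on the log2 scale (SE 0.27, unadjusted p = 0.0700, adjusted p = 0.405, edgeR). *PUF4* had an efficiency of 0.774 ± 0.137 in WT and 0.565 ± 0.114 in *def1Δ* with overlapping columns (-0.44, SE 0.24, adjusted p = 0.435). The means of *PUF2* were between 0.486 and 0.524 in the 3 strains, those of *PUF3* between 0.635 and 0.679, those of *MPT5* between 0.578 and 0.673 and those of *PUF6* between 0.572 and 0.727. Standard errors were 0.20 to 0.28, and the largest unadjusted p called among all genes was 1.45e-05 (edgeR). Differences of the sizes given here, the -0.53 of *JSN1* and -0.44 of *PUF4* included, were therefore not detectable with these columns.

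**Figure D4:**
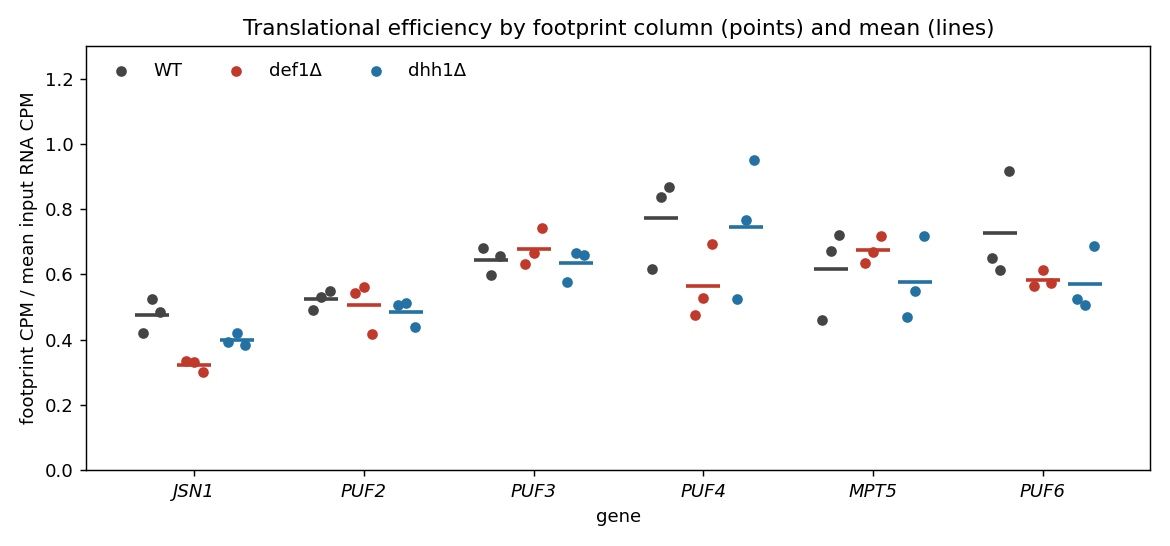
Translational efficiency of each Puf gene, as footprint CPM divided by the mean input RNA CPM of the same strain (vertical axis, linear from 0), in WT (grey), def1Δ (red) and dhh1Δ (blue). Points are the 3 footprint columns of a strain and lines are their means. The mean of *JSN1* is lowest in each strain, at 0.477, 0.324 and 0.399, and its WT columns overlap with those of *PUF2* and *MPT5*.

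Likeness of pattern was described over the 31 total, labeled and input RNA libraries, as Pearson's r of log2(CPM + 1) centered within each table, among 3698 genes with a mean of at least 100 counts in each table. The points share libraries, strains and labeling times, so no p is given. Among the members, *PUF2* and *MPT5* were most alike (r = 0.94), followed by *JSN1* and *PUF3* (0.90), and *PUF4* was like *MPT5* and *PUF2* (0.81 with each). *PUF6* was least like the rest, with r between 0.13 and 0.50. The genes most like *JSN1* were *SCD5*, *MDS3* and *ROD1* (r = 0.961, 0.960 and 0.958), and those most like *PUF3* were *VIR1*, *AZF1* and *SEC8* (0.971, 0.971 and 0.968). *PUF2* was most like *ECM30*, *CDC27* and *NNF2* (0.963, 0.958 and 0.949), *MPT5* like *SEF1*, *WHI3* and *OCA5* (0.977, 0.960 and 0.957) and *PUF4* like YGL140C, *IRA2* and *SKN7* (0.959, 0.959 and 0.957). *PUF6* was most like *PWP1*, *NOC2* and *HCA4*, all of which encode ribosome assembly factors, at lower values of 0.929, 0.910 and 0.900.

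The mRNAs known to be bound by Puf3 were read as a list of 8: *COX17*, *CYT2*, *TUF1*, *BCS1*, *PET117*, *PET123*, *RDL2* and *MRPL11*, which encode mitochondrial assembly factors, ribosomal proteins, an elongation factor and enzymes. All 8 held the Puf3 site on the coding strand within 200 bases of the stop, which follows from their choice as targets. In total RNA 3 of 8 rose in *def1Δ* and none fell, beside the 15.4% of all genes higher and 16.4% lower: *CYT2*, for attachment of heme to cytochrome c1 (log2 fold change 1.10, SE 0.14), and the mitochondrial ribosomal protein genes *PET123* (0.87, SE 0.14) and *MRPL11* (0.87, SE 0.15). The list's median was 0.87, beside 0.04 over all genes tested. In input RNA 3 of 8 rose and none fell, beside 14.1% of all genes higher: *COX17*, the copper chaperone of cytochrome c oxidase (1.61, SE 0.35), *CYT2* (0.93, SE 0.16) and *TUF1*, the mitochondrial elongation factor (0.63, SE 0.11), with a median of 0.58 beside -0.01. These same 3 rose in footprints, by 1.01, 0.53 and 0.55 and beside 11.8% of all genes, with a median of 0.30 beside 0.01. In *dhh1Δ* input RNA *COX17* (1.39, with an adjusted p just under the threshold) and *CYT2* (1.03) rose, beside 13.5% of all genes, none fell, and the median was 0.36 beside -0.01. None of the 8 was called for translational efficiency.

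In labeled RNA the median of the Puf3 targets rose with time in both strains, while *PUF3* fell in both. Between 6 and 90 min in *def1Δ* all 8 rose, beside 29.5% of all genes (median 1.35, beside -0.12), *COX17* most (3.34, SE 0.46). In WT 3 rose, beside 19.2% of all genes (*RDL2* 1.92, *COX17* 1.68, *TUF1* 0.99). *CYT2* fell there by 0.45 on the log2 scale, beside 26.8% of all genes lower, and the list's WT median was 0.77, beside -0.16. The difference of this change between strains was called for 2 of 8, both higher in *def1Δ*, beside 9.88% of all genes. Against WT, none of the 8 was higher in *def1Δ* at 6, 9 or 24 min, beside 24.3%, 26.7% and 28.9% of all genes. At these times 1, 3 and 2 were lower, beside 22%, 24% and 23.1%. At 12 min, with 1 library a strain, the list's median log2 fold change was -0.39, beside -0.02. At 90 min 4 were higher, beside 28.3% of all genes, and none lower, beside 23.7%. Averaged over times, 4 of 8 were higher and 3 lower, beside 36.9% and 34.7% of all genes, with a median of -0.04 beside -0.01.

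The list of Mpt5 and Puf4 targets held *HO* (the mating-type endonuclease), *STE7* (a MAP kinase kinase of the mating pathway), *TEC1* (a transcription factor of filamentous growth) and *LRG1* (a GTPase-activating protein for Rho1). *HO* was lower in *def1Δ* total RNA (-2.48, SE 0.35), input RNA (-2.18, SE 0.18) and footprints (-2.15, SE 0.16) and in *dhh1Δ* input RNA (-1.96, SE 0.18), and was the 1 of 4 called in total RNA and in footprints, where 16.4% and 12.7% of all genes were lower. *LRG1* was also lower in *def1Δ* input RNA (-0.73, SE 0.11), so that 2 of 4 were lower there, beside 9.87% of all genes. *STE7* was higher in *dhh1Δ* input RNA (0.92, SE 0.11), where 1 of 4 was higher and 1 lower, beside 13.5% and 9.15% of all genes. Against *dhh1Δ*, 3 of 4 were lower in *def1Δ*, beside 7.18% of all genes: *LRG1* (-1.02), *TEC1* (-0.84) and *STE7* (-0.82). Averaged over labeling times 3 of 4 were higher in *def1Δ*, beside 36.9% of all genes (median 0.64, beside -0.01).

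Of the 5 genes tied to Puf6 (*ASH1*, *SHE2*, *SHE3*, *LOC1* and *FUN12*, the last 4 for transport, ribosome assembly and translation initiation), *LOC1* fell in *def1Δ* total RNA (-1.46, SE 0.18), where *PUF6* was at -0.59 without a call. *LOC1* was the 1 of 5 called in total RNA, beside 16.4% of all genes lower. *SHE3* rose 1.31-fold in *def1Δ* input RNA and *ASH1* rose 2.29-fold in *dhh1Δ* input RNA. Each was the 1 of 5 called there, beside 14.1% and 13.5% of all genes higher. None was called in footprints. Averaged over labeling times 2 of the 5 were higher and 2 lower, beside 36.9% and 34.7% of all genes. The Ccr4-Not list held 9 genes, whose products Puf3, Puf4 and Mpt5 recruit. Of these, the deadenylase gene *CCR4* and the scaffold gene *CDC39* were lower in *def1Δ* input RNA (-1.06 and -1.16, SE 0.12 each) and footprints (-1.49 and -0.93). *NOT5* was higher in input RNA (0.68), beside 9.87% of all genes lower and 14.1% higher there. In footprints *CCR4* and *CDC39* were the 2 of 9 called, beside 12.7% of all genes lower. In total RNA *NOT5* was the 1 higher (0.70) and *CAF40* the 1 lower (-0.73), beside 15.4% and 16.4% of all genes. Averaged over labeling times 5 of the 9 were higher and 3 lower, beside 36.9% and 34.7% of all genes. In *dhh1Δ* input RNA *MOT2* alone was called (0.59, SE 0.14), beside 13.5% of all genes higher. *NOP9*, the other yeast gene with Pumilio repeats, gave -0.24 in total RNA and 0.13 in input RNA without a call. In labeled RNA it was higher at 24 min (1.12), as were *PUF6*, *PUF3*, *JSN1* and *MPT5*, beside 28.9% of all genes. It was also higher averaged over labeling times (0.36), beside 36.9% of all genes.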

How the data were processed

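The deposited total and labeled RNA tables hold expected counts per gene from STAR and RSEM 1.2.28, per the labels and methods. The deposited input RNA and footprint tables hold whole-number counts per gene, and which of the other tools that the submitters' processing notes list (HISAT2, featureCounts, FastQC, DESeq2; build R64) made them is not given in the sources used here. *S. pombe* spike-in reads were not used here. Expected counts were rounded. Genes with at least 15 counts over a table's libraries were tested in edgeR 4.0.16 (TMM, quasi-likelihood, Benjamini-Hochberg over all genes) in R 4.3.3, within each table, with the libraries of all its groups in 1 fit. The footprint fit left out the *dhh1Δ* columns, and translational efficiency was fitted over the WT and *def1Δ* input RNA and footprint columns together. The fits were tested on simulated counts. The alternatives were DESeq2 1.42.0, RLE factors, library totals, no filter, an adjusted p under 0.05, a 2-fold minimum, a replicate block, only the libraries compared and leaving out each library. The 12 min fits have 1 library a strain. Sequences and positions are from RefSeq R64. The named genes are the 6 members, the deleted genes, the lists given in the text and, for each member, the 3 genes most like it. The members are fixed by name, but the gene family and the lists were chosen with earlier results of these data known. Counts of single members ran from 139 to 15022 a library or column. No authors' fold change was used.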

Additional observations from a re-analysis of the deposited data

Results flagged for a closer look

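The difference between *def1Δ* and WT in labeled RNA depended on the labeling time for *PUF4*, and was on either side of 0 for *MPT5* and *PUF2* without a called interaction. For *PUF4* the change from 6 to 90 min differed between strains by -1.35 on the log2 scale (SE 0.23, adjusted p = 0.000667, edgeR, interaction term), the *def1Δ* libraries being above WT at 6 to 24 min and below at 90 min. *MPT5* had the same order of libraries and a difference of -0.95 (SE 0.27, adjusted p = 0.0139), and *PUF2*, which overlapped at 24 min and had no settled direction at 90 min, had one of -0.70 (SE 0.20, adjusted p = 0.0149). Neither of these passed the threshold of 0.01, and no test was run between the other times and 90 min.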

How the results depend on the processing

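No called direction reversed under any alternative. Of 1230 fold changes of single members recomputed, 1100 kept their side of the threshold, 86 lost the call and 44 gained it. Requiring 2-fold left 1 member called in total RNA (18.4% of all genes), 1 averaged over times (26.4%) and 1 in footprints (10.6%). At 6, 9, 24 and 90 min it left 1, 3, 2 and 1 (20.5%, 24.8%, 27.3% and 28.9%), and 3 for 90 against 6 min in WT (21.8%). In input RNA it left 0 for *def1Δ* against WT (9.87%), *dhh1Δ* against WT (9.03%) and *def1Δ* against *dhh1Δ* (4.52%). An adjusted p under 0.05 gave 5 in total RNA (49.1% of all genes), 5 at 6 min (57.9%) and 3 for the difference between strains over time (29.9%). It gave 3 for *def1Δ* input RNA (40.5%) and 2 for *def1Δ* against *dhh1Δ* (25.7%). DESeq2 gave 3 for that difference and 3 for *def1Δ* input RNA, and RLE factors gave 2 for that difference. Fitting only the times compared gave 6 at 6 min, 3 at 9 min and 3 for the difference, and only WT and *dhh1Δ* gave 1. The cause of these shifts was not tested. Shares of all genes are not given for DESeq2, RLE factors, these fits, the fits without 1 library or the replicate block. Leaving out 1 library gave 0 to 5 in total RNA, 3 to 6 averaged over times, 0 to 2 for *def1Δ* and 1 to 2 for *dhh1Δ* input RNA, and 1 in footprints.

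Whether replicate numbers pair the samples was not settled, and the main fits have no replicate block. Same-numbered correlations were 0.04 in total RNA. They were over 0.1 in 30 of 56 pairs in labeled RNA, 6 of 9 in input RNA and 2 of 3 in footprints. Pairs with different numbers gave -0.04 in total RNA, and 2 of 56, 7 of 18 and 2 of 6 were over 0.1. The medians were 0.11 against -0.11 in labeled RNA and 0.33 against -0.22 in input RNA. In groups of 2 libraries the pairs mirror each other and are not independent. The replicate block gave 3 members for the difference between strains over time (adding *PUF2* and *MPT5*) and 2 for *def1Δ* input RNA (adding *JSN1*, adjusted p = 0.00107), and stayed within 1.5 times the count elsewhere, with 4 in total RNA (adding *PUF6*, adjusted p = 0.00769). Library totals in place of TMM moved 41 of 108 group levels by over 1 SD, by factors of 0.745 to 1.19. With 1 to 3 libraries a group, spread limits these calls more than depth does.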
